A study of Homo sapiens with 8 samples.

Results

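A set of 10 genes of messenger RNA decapping and processing bodies was followed through pulldowns with biotinylated microRNAs. They were taken from the count table by their Ensembl gene IDs, as a list of known decapping and processing-body genes with no threshold on measured values, although earlier results of these data were known when the list was made: DCP2 (ENSG00000172795), DCP1A (ENSG00000272886), EDC3 (ENSG00000179151), EDC4 (ENSG00000038358), PATL1 (ENSG00000166889), DDX6 (ENSG00000110367), LSM1 (ENSG00000175324), XRN1 (ENSG00000114127), EIF4ENIF1 (ENSG00000184708) and MOV10 (ENSG00000155363). These are 10 of 60666 gene IDs, and all 10 were among the 17351 that passed the filter on low counts. The study used 786-0 cells, an established human line from a clear cell renal carcinoma that the labels describe as kidney epithelial. The cells had received a synthetic biotinylated duplex for 48 h before RNA was recovered with it and sequenced, to look for RNAs bound by miR-2355-5p and miR-1271-5p. The libraries comprised 3 with a control microRNA (Control_miR), 2 with miR_2355 and 3 with miR_1271, and the labels give no other difference between these groups. The sequence of the control duplex is not given in the sources used here. RNA from before the pulldown was not analysed here, so each value is a share of the recovered RNA, and recovery cannot be told apart from the amount of a transcript in the cells.

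Decapping removes the 5′ cap of a messenger RNA and exposes it to degradation from that end. DCP2 is the catalytic enzyme and DCP1A its activator. EDC3, EDC4, PATL1, DDX6 and the LSM1-7 ring promote the step, and XRN1 then digests the uncapped RNA. Many of these proteins gather in cytoplasmic processing bodies. MicroRNAs, held by Argonaute proteins, use this machinery to silence their targets, and the RNAs measured here encode that machinery.

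The mature sequences of both microRNAs, from RefSeq's annotation of GRCh38.p14, are shown because they define the bait of each pulldown. They are written 5′ to 3′ with the seed, bases 2 to 8, in capitals. The seed is the stretch that pairs with a target.
miR-2355-5p: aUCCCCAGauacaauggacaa
miR-1271-5p: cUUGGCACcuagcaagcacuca
miR-2355-5p lies on the minus strand at chr2:207110043-207110063 and miR-1271-5p on the plus strand at chr5:176367960-176367981. A transcript site complementary to the miR-2355-5p seed reads CUGGGGA and one complementary to the miR-1271-5p seed reads GUGCCAA. Transcript sequences were not used here, so the members were not searched for such sites.

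Most of the 10 genes had higher levels in the RNA recovered with either microRNA than in the RNA recovered with the control duplex. With miR_2355, 7 of the 10 genes rose and 1 fell, where 29.8% of all tested genes were called in either direction (edgeR quasi-likelihood test, adjusted p under 0.05). By direction, 12.3% of all tested genes were higher and 17.5% lower. With miR_1271, 6 rose and 2 fell, against a background of 40.2% called, 17.6% higher and 22.5% lower. Among the 6949 tested genes within the members' range of mean level, 40.7% were called with miR_2355 (17.2% higher, 23.5% lower) and 52.5% with miR_1271 (23.0% higher, 29.5% lower). The median log2 fold change of the 10 genes was 0.44 with miR_2355 and 0.43 with miR_1271, beside 0.00 and 0.01 over all tested genes. Both comparisons use the same 3 control libraries and are therefore not independent. In each comparison 8 of the 10 genes had no overlap between microRNA and control libraries, as did 52.7% of all tested genes with miR_2355 and 49.9% with miR_1271. The number of members called with miR_2355 went from 8 to 3 without miR_2355 replicate 1 and to 4 without replicate 2, and the number called with miR_1271 from 8 to 5 without miR_1271 replicate 1. The share of all tested genes called also went down in these settings, from 29.8% to 13.0% and 23.1% with miR_2355 and from 40.2% to 34.1% with miR_1271.

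**Figure D1:**
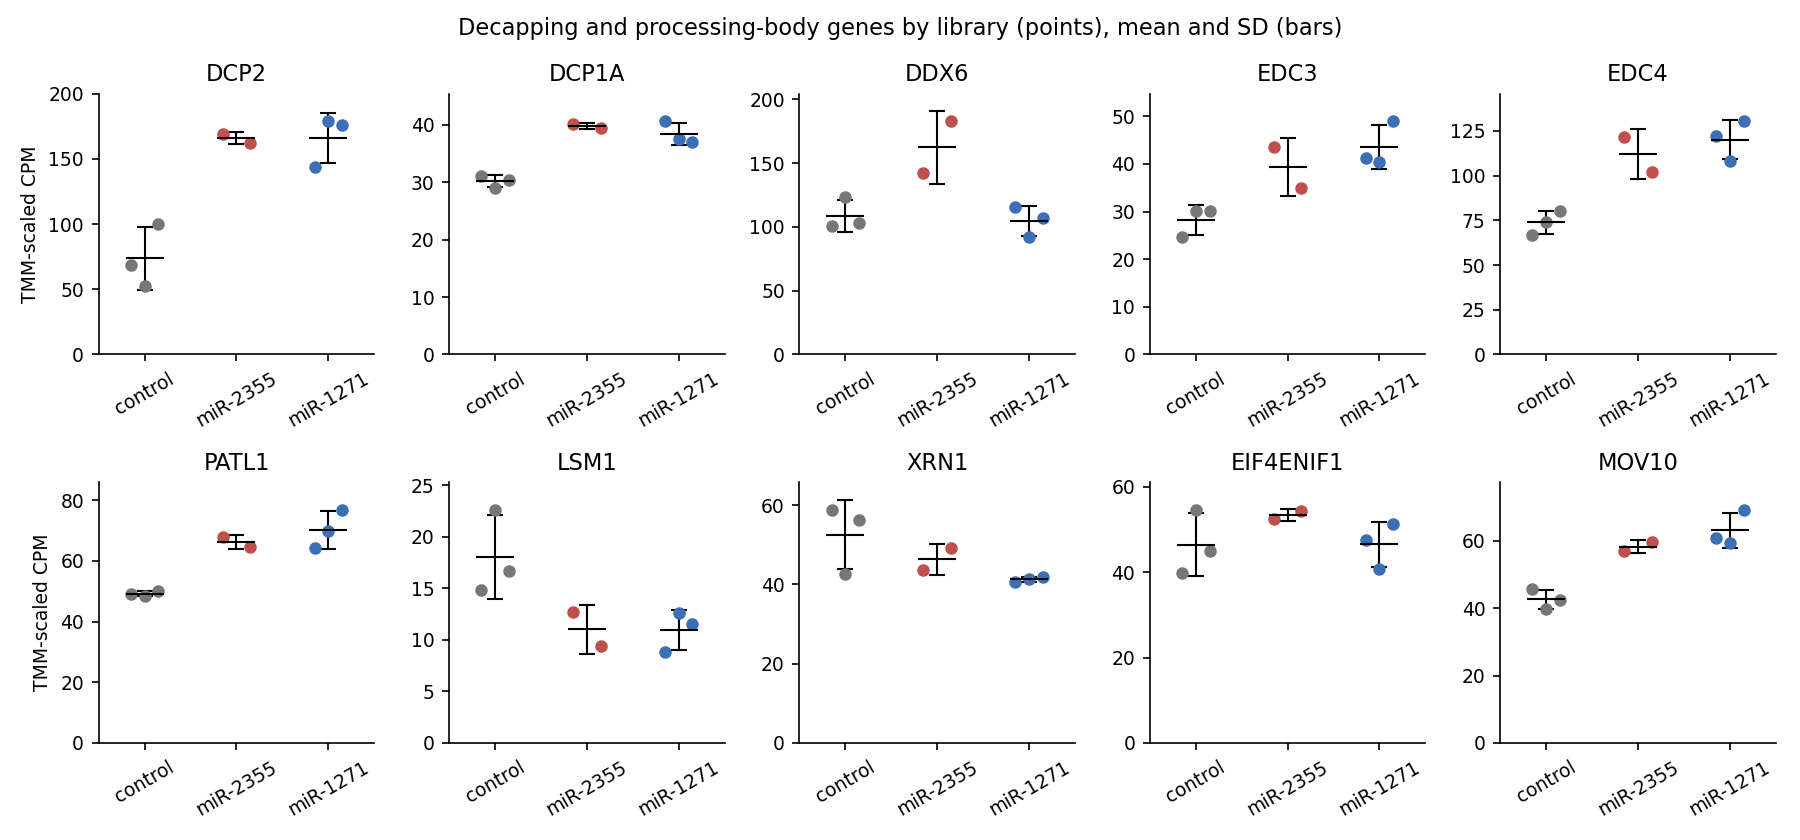
Level of each of the 10 genes in every library, in TMM-scaled CPM on an axis from 0, with the group mean and SD as black bars (3 control, 2 miR_2355 and 3 miR_1271 libraries). DCP2 separates furthest from the controls in both pulldowns, LSM1 is the gene with all microRNA libraries below all controls, and DDX6 is high in the miR_2355 libraries alone.

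DCP2 (chr5:112976798-113022195, GRCh38.p14), the decapping enzyme, showed the largest change among the 10 genes in both pulldowns. Levels are given as CPM, the read count relative to the TMM-scaled library size. The level of DCP2 was 69.0, 52.7 and 100.3 CPM in control replicates 1, 2 and 3. It was 169 and 163 CPM in the miR_2355 libraries and 144, 179 and 176 CPM in the miR_1271 libraries. Every microRNA library lay above every control library, although the controls themselves were widely spread, with a mean of 74.0 ± 24.2 CPM (SD, n = 3). The log2 fold change was 1.14 ± 0.19 (SE) with miR_2355, a 2.21-fold rise (edgeR adjusted p = 0.000277), and 1.15 ± 0.18 with miR_1271, also 2.21-fold (edgeR adjusted p = 8.58e-05). Of all tested genes, 97.8% had a lower log2 fold change than DCP2 with miR_2355 and 96.6% with miR_1271. In the 15 alternative settings the call held in both pulldowns, with log2 fold changes of 0.97 to 1.43 in each. The annotated span of DCP2 overlaps that of MCC, on the opposite strand, by 90 bases, and the strand setting of the counting is not given, so reads from this stretch cannot be assigned.

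DCP1A, the activating partner of DCP2, rose less. It stood at 31.1, 29.0 and 30.4 CPM in the controls, a narrow range, against 40.1 and 39.4 CPM with miR_2355 and 40.6, 37.5 and 37.0 CPM with miR_1271. Neither microRNA group overlapped the controls, while the microRNA groups overlapped each other. The log2 fold changes were 0.39 ± 0.12 (SE; edgeR adjusted p = 0.0232) and 0.34 ± 0.11 (edgeR adjusted p = 0.0232). The call was lost in 5 of 15 alternative settings in each comparison, with adjusted p between 0.00756 and 0.121 for miR_2355 and between 0.00507 and 0.209 for miR_1271. For miR_2355 these included leaving out either miR_2355 library or control replicate 3, and for miR_1271 leaving out control replicate 2 or 3 or miR_1271 replicate 1. With library totals in place of TMM, the miR_1271 value was 0.19. The annotated span of DCP1A overlaps those of LOC107986087 by 12447 bases, LOC124909380 by 3670 and SNORD38C by 67. The strands of these 3 genes were not available here, so reads from the shared stretches cannot be assigned.

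The RNAs of decapping scaffold proteins rose as well. EDC4, a large scaffold that joins DCP1A and DCP2, was at 67.0, 74.1 and 80.1 CPM in the controls, at 122 and 102 CPM with miR_2355, and at 122, 108 and 130.2 CPM with miR_1271. No microRNA library reached down to the control range. EDC4 rose 1.52-fold with miR_2355 (log2 0.60 ± 0.13 SE; edgeR adjusted p = 0.0029) and 1.63-fold with miR_1271 (log2 0.70 ± 0.12; edgeR adjusted p = 0.000263). The first call was lost without miR_2355 replicate 1 (adjusted p = 0.0668, the highest of 15 settings; lowest 0.000214), while the second held in every setting.

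EDC3, which binds DDX6 and DCP2, was at 24.6, 30.1 and 30.1 CPM in the controls. It reached 43.6 and 35.0 CPM with miR_2355 and 41.3, 40.4 and 48.9 CPM with miR_1271, again without overlap with the controls. The rises were 1.40-fold (log2 0.49 ± 0.15 SE; edgeR adjusted p = 0.0205) and 1.55-fold (log2 0.63 ± 0.14; edgeR adjusted p = 0.0015). The miR_2355 call was lost without miR_2355 replicate 1 or control replicate 1, with adjusted p from 0.00772 to 0.258 over the 15 settings. The miR_1271 call held in all 15.

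PATL1, a bridge between the LSM1-7 ring and the decapping enzyme, had the tightest controls of the 10 genes, at 49.2, 48.4 and 50.1 CPM. It was at 67.9 and 64.6 CPM with miR_2355 and at 64.4, 69.7 and 76.8 CPM with miR_1271, all above the controls. The log2 fold changes were 0.43 ± 0.12 (SE; edgeR adjusted p = 0.0137) and 0.51 ± 0.11 (edgeR adjusted p = 0.00153). The first was lost only without miR_2355 replicate 1 among the 15 settings (adjusted p = 0.102; lowest 0.00454), and the second in none.

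DDX6 (chr11:118747763-118791744, GRCh38.p14), a helicase that represses translation and activates decapping, was the member that differed between the microRNAs. Its level was 100.3, 123 and 103 CPM in the controls and 116, 92.1 and 107 CPM in the miR_1271 libraries, and these groups overlapped in part. The miR_2355 libraries, at 142 and 183 CPM, lay above all 6 others. The log2 fold change over the control was 0.58 ± 0.15 (SE) with miR_2355 (edgeR adjusted p = 0.00664). It was -0.05 ± 0.13 with miR_1271 (edgeR adjusted p = 0.813, not called; the sign turned in 4 of 15 settings, upper-quartile scaling among them). The direct comparison gave a log2 difference of 0.63 ± 0.15 in favour of miR_2355 (edgeR adjusted p = 0.0197), where 6.15% of all tested genes were called, 3.50% higher and 2.65% lower with miR_2355. Both calls depended on miR_2355 replicate 2, the higher library: without it the difference was 0.44 (adjusted p = 0.239) and the rise over control 0.39 (adjusted p = 0.121). The direct call was also lost without miR_1271 replicate 2 (0.55, adjusted p = 0.079) or replicate 3 (0.65, adjusted p = 0.0629) and with the replicate number as a block (0.61, adjusted p = 0.072). Over the 15 settings its adjusted p ran from 0.000875 to 0.239. RefSeq lists 2 pseudogenes of DDX6, DDX6P1 and DDX6P2, whose reads the counting could share with it.

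LSM1, the subunit that distinguishes the cytoplasmic ring from the nuclear one, fell in both pulldowns, where EDC3, EDC4 and PATL1 rose. It was the least recovered member by reads, with 85 reads in the library where it was lowest. Its level was 14.9, 22.6 and 16.6 CPM in the controls, 12.7 and 9.36 CPM with miR_2355, and 8.79, 12.6 and 11.6 CPM with miR_1271. All 5 microRNA libraries lay below all 3 controls. The log2 fold change was -0.66 ± 0.21 (SE; edgeR adjusted p = 0.0262) with miR_2355 and -0.66 ± 0.19 (edgeR adjusted p = 0.0111) with miR_1271, a 1.58-fold fall in each. The miR_2355 call was lost without control replicate 2 (-0.51) or 3 (-0.70), without miR_2355 replicate 2 (-0.46) and with a replicate block (-0.65), with adjusted p from 0.0105 to 0.21 over the 15 settings. The miR_1271 call was lost without miR_1271 replicate 1 (-0.52, adjusted p = 0.065; lowest of the settings 0.00109). RefSeq lists 2 pseudogenes of LSM1, LSM1P1 and LSM1P2, whose reads could be shared with it. The annotated span of LSM1 also overlaps those of LOC105379382 by 74 bases and RNU6-323P by 107.

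XRN1 (chr3:142306610-142448037, GRCh38.p14), the 5′ to 3′ exonuclease that acts after decapping, did not rise with the decapping enzyme. It was at 58.7, 42.7 and 56.1 CPM in the controls, at 43.6 and 49.1 CPM with miR_2355, and at 40.6, 41.4 and 41.9 CPM with miR_1271. The miR_2355 libraries lay within the control range and the miR_1271 libraries just below its lowest value, that of control replicate 2, the library with the fewest reads. XRN1 fell by 0.37 ± 0.13 (SE) on the log2 scale with miR_1271 (edgeR adjusted p = 0.0305), a call that was lost in 9 of 15 alternative settings (adjusted p from 0.00398 to 0.113). These included DESeq2, upper-quartile factors, equal depth, the replicate block and leaving out control replicate 1 or 3 or any miR_1271 library. With miR_2355 the log2 fold change was -0.20 ± 0.14 and did not pass (edgeR adjusted p = 0.307). The annotated span of XRN1 overlaps those of the pseudogenes RNU6-1294P by 81 bases and RNU1-100P by 165.

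**Figure D2:**
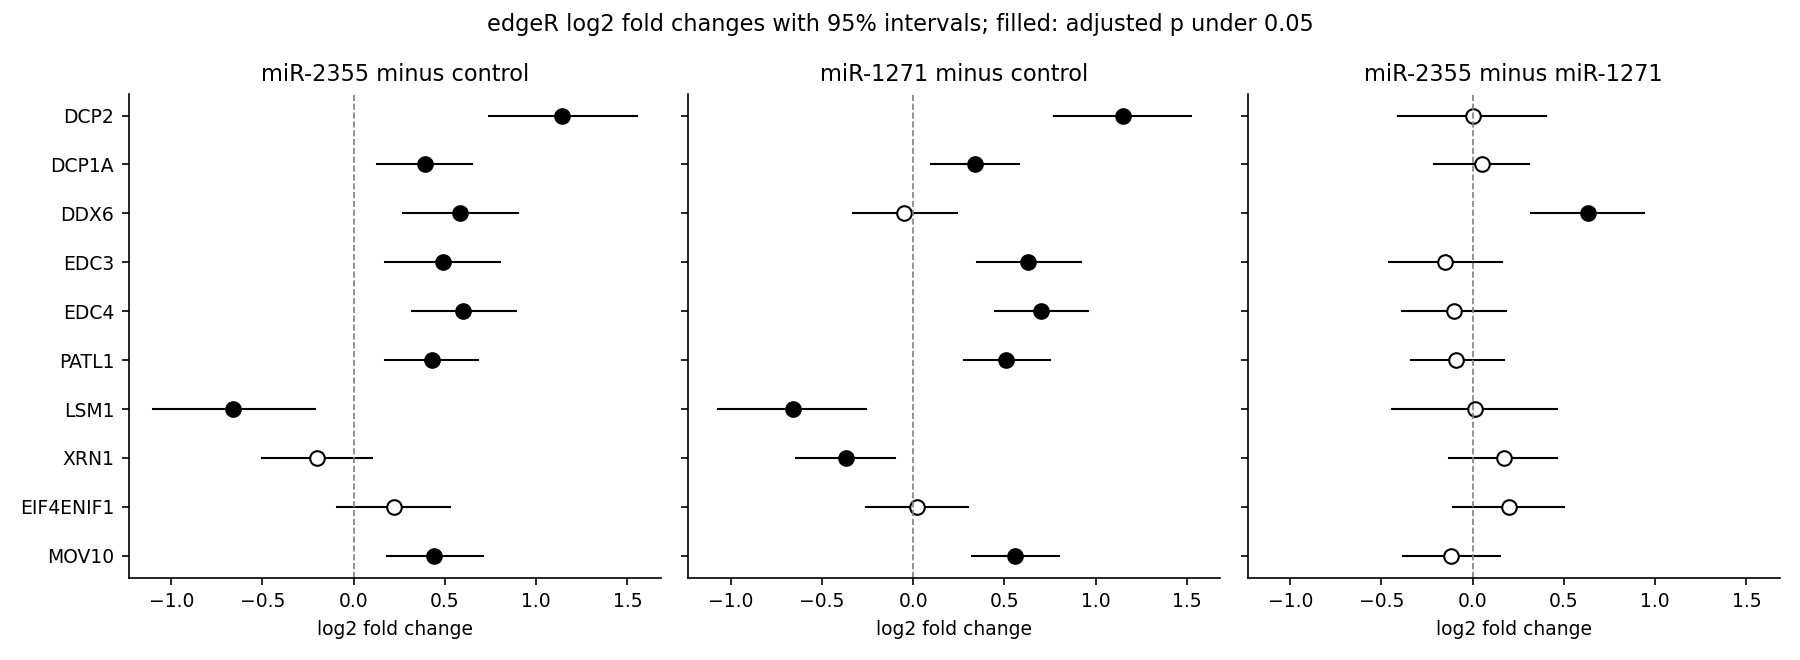
Log2 fold change of each gene in the 3 comparisons, from the edgeR fit to all 8 libraries, with its 95% interval as a line. Filled points had an adjusted p under 0.05, and the dashed line marks no difference. Only DDX6 is filled in the direct comparison on the right.

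The ratio of DCP2 to XRN1 reads does not depend on how libraries are scaled to each other. It was chosen after the values had been seen and is given without a test. The ratio combines the rise of DCP2 with lower XRN1 values, at log2 -0.37 with miR_1271 and -0.20 with miR_2355 (not called). It can therefore exceed the change of DCP2 alone, and ratios of DCP2 to other members were not computed. The ratio was 1.17, 1.24 and 1.79 in the control libraries, 3.88 and 3.31 with miR_2355, and 3.55, 4.32 and 4.19 with miR_1271. The means were 1.40 ± 0.34 (SD, n = 3), 3.60 ± 0.41 (SD, n = 2) and 4.02 ± 0.42 (SD, n = 3). Every microRNA library was above every control, and the microRNA groups overlapped each other. Gene length does not enter a comparison of 1 such ratio between libraries, but the ratio within a library does not compare the levels of the genes.

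**Figure D3:**
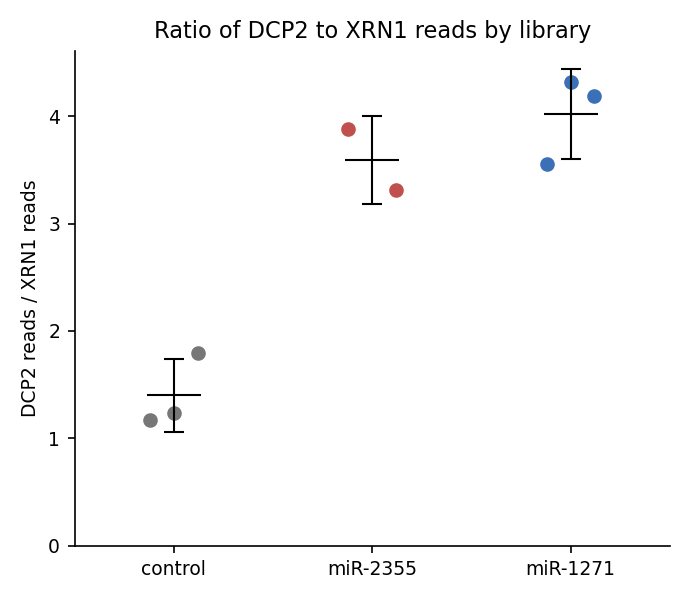
DCP2 reads divided by XRN1 reads in each library (points), with mean and SD of each group as black bars and the axis starting at 0. Control libraries lie between 1.17 and 1.79 and microRNA libraries between 3.31 and 4.32.

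MOV10, an RNA helicase found with Argonaute proteins, rose in both pulldowns. It was at 45.6, 39.9 and 42.3 CPM in the controls, at 57.0 and 59.6 CPM with miR_2355, and at 60.8, 59.3 and 69.2 CPM with miR_1271, without overlap with the controls. The log2 fold changes were 0.44 ± 0.12 (SE; edgeR adjusted p = 0.0128) and 0.56 ± 0.11 (edgeR adjusted p = 0.000961). The first was lost without either miR_2355 library (adjusted p = 0.0541 without replicate 1 and 0.081 without replicate 2; lowest of the 15 settings 0.00466), and the second held in all settings.

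EIF4ENIF1 encodes 4E-T, which binds the cap-binding protein eIF4E and carries it into processing bodies. Its level was 39.8, 54.5 and 45.0 CPM in the controls, 52.3 and 54.3 CPM with miR_2355, and 47.5, 40.8 and 51.3 CPM with miR_1271. Both microRNA groups overlapped the controls. It passed in neither comparison, with log2 fold changes of 0.22 (95% interval -0.09 to 0.53; edgeR adjusted p = 0.275) and 0.02 (95% interval -0.26 to 0.30; edgeR adjusted p = 0.899). The annotated span of EIF4ENIF1 overlaps that of the pseudogene RNU6-28P by 104 bases.

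Between the microRNAs, none of the other 9 members passed the test. Their log2 differences (miR_2355 minus miR_1271) ran from -0.15 for EDC3 to 0.20 for EIF4ENIF1, and their 95% intervals reached from -0.46 to 0.50. For DCP2 the difference was 0.00 with a 95% interval of -0.41 to 0.40, and for LSM1 it was 0.01 with an interval of -0.44 to 0.46. Differences within these intervals are not told apart from 0 by these libraries. Of the 10 members, 3 had no overlap between the microRNA groups, DDX6, XRN1 and EIF4ENIF1, each higher with miR_2355, beside 41.5% of all tested genes without overlap in either direction.

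**Figure D4:**
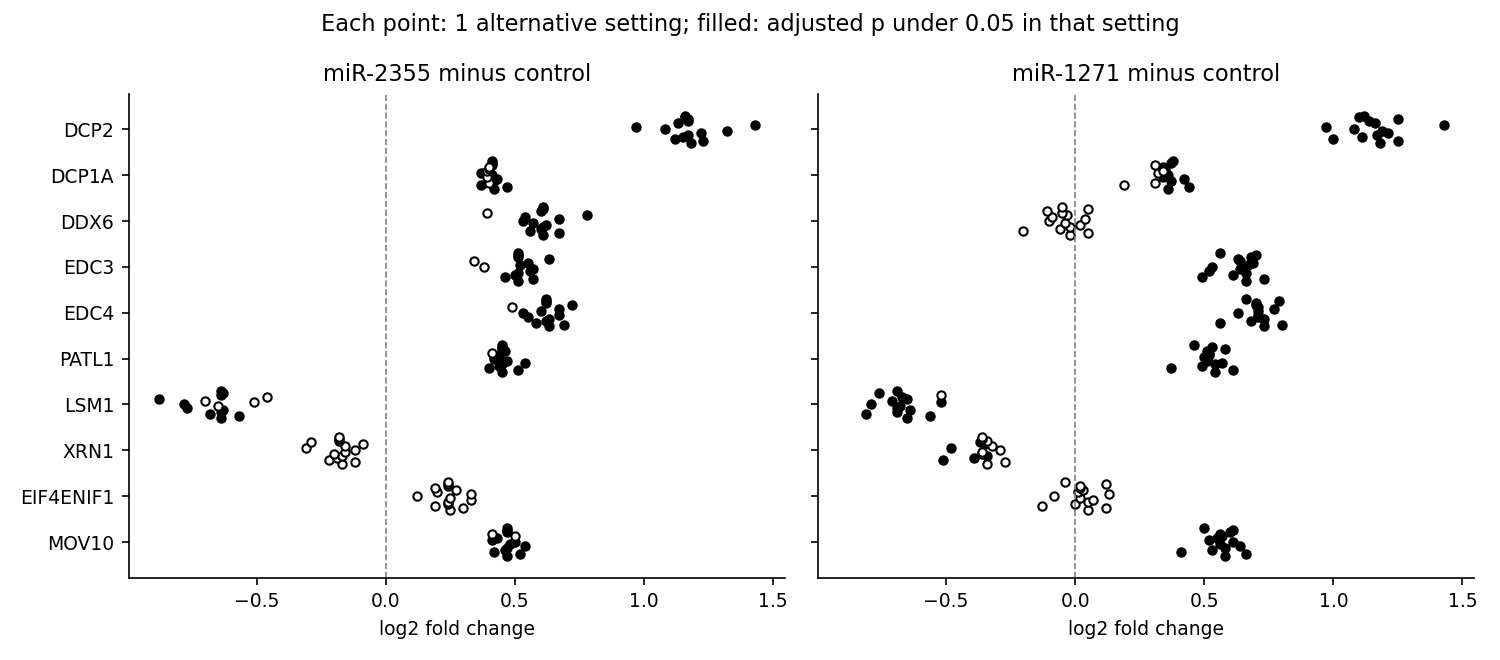
Log2 fold change of each gene over the control in each of 15 alternative settings (1 point per setting: other scaling, tool, filter, depth or samples, or 1 library left out). Filled points had an adjusted p under 0.05 in that setting. DCP2 stays filled throughout, between 0.97 and 1.43, whereas DCP1A changes between filled and open in both comparisons. XRN1 changes with miR_1271 and is open throughout with miR_2355. LSM1 also changes in both comparisons, and DDX6, EDC3, EDC4, PATL1 and MOV10 change with miR_2355.

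Of all counted reads, the 10 genes together took 0.0546% ± 0.0029 in the controls (SD, n = 3), 0.0773% ± 0.0028 with miR_2355 (SD, n = 2) and 0.0663% ± 0.0051 with miR_1271 (SD, n = 3). These shares are of library totals without TMM scaling. They weigh each member by its reads, so the genes with the most reads count most. Mean DCP2 went from 74.0 CPM in the controls to 166 CPM with either microRNA, and mean DDX6 from 109 to 162 CPM with miR_2355. The TMM factors were 1.01 and 1.05 for the miR_2355 libraries and 0.924 to 0.964 for the miR_1271 libraries. Among the members, only DDX6 was called between the microRNAs, where 6.15% of all tested genes were called. Total counts ran from 4122875 in control replicate 2 to 22864693 in control replicate 1, and member counts from 85 to 3169 reads per gene and library. No label ties the replicates to separate cultures, and the p-values then cover only the variation among these samples, part of which may be technical. The design text speaks of triplicates, and 2 miR_2355 libraries were analysed here.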

How the data were processed

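The authors deposited raw read counts per Ensembl gene ID, 1 column per library, without normalization. Per the submitters' processing notes, BWA and featureCounts were used with the builds hg38 and GRCh38. No version, annotation release, strand setting or rule for multi-mapping reads is given in the sources used here. Since BWA is not splice-aware, reads over exon junctions may be missing from all libraries.

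Counts of all genes were analysed with edgeR 4.0.16 in R 4.3.3: filterByExpr (17351 of 60666 IDs kept, 99.78% to 99.82% of reads), TMM scaling, and a quasi-likelihood fit to all 8 libraries with 1 mean per group, tested by glmQLFTest with Benjamini-Hochberg adjustment over all tested genes. A gene was called at an adjusted p under 0.05. SE is the log2 fold change over the square root of F, and 95% intervals use the fit's degrees of freedom. Levels are TMM-scaled CPM. Alternatives were DESeq2 1.42.0, upper-quartile factors, library totals, no filter, only the groups compared, thinning to 4122875 reads, a replicate block, and each library left out. The named genes are the 10 members, called or not. Members and lists were chosen with earlier results of these data known. Of 17 other pathway genes and 19 cell type markers listed by symbol, 0 could be matched to IDs, so they were not analysed here, and the label of the cell line was not checked against markers. Member positions come from RefSeq, matched by symbol (10 of 10).

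Replicates of a group differed beyond counting noise (chi-square per degree of freedom 5.86 to 21.4). On simulated counts with 200 changed genes, 18.5% of 1.5-fold and 63.2% of 2-fold changes were recovered for miR_2355 against control (16870 genes), and 40.6% and 71.4% for miR_1271 (16899 genes). False calls made up 10.4% and 6.94% of calls on these counts. In the data, 29.8% of all tested genes were called for miR_2355 against control and 40.2% for miR_1271. Recovery and false calls were not tested with a share of changed genes that large.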

Additional observations from a re-analysis of the deposited data

Results flagged for a closer look

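In the direct comparison of the microRNAs, 6.15% of all tested genes were called. DDX6 was the member whose response differed between the microRNAs by this test. Its log2 fold change over the control was 0.63 larger with miR_2355 than with miR_1271 (SE 0.15, edgeR adjusted p = 0.0197). Both miR_2355 libraries lay above the other 6. The difference was 0.44 to 0.81 on leaving out 1 library and did not pass without miR_2355 replicate 2 or miR_1271 replicate 2 or 3.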

How the results depend on the processing

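DCP2 in both pulldowns, and EDC3, EDC4, PATL1 and MOV10 with miR_1271, kept direction and call in all 15 alternatives. With 1 library left out, members called numbered 3 to 8 with miR_2355 (2 to 7 higher, 0 to 1 lower), 5 to 8 with miR_1271 (0 to 2 lower) and 0 to 1 between the microRNAs (0 to 1 higher), while 13.0% to 29.5%, 31.2% to 41.8% and 1.25% to 10.1% of all tested genes were called. Where 1 library remained in a group, it was assumed to vary like the others. Without 1 control or miR_1271 library, 5 to 6 members were higher with miR_1271, beside 2122 to 3124 of 16844 to 17480 tested genes. In the same settings 3130 to 3928 tested genes were lower with miR_1271. With miR_2355 these settings gave 6 to 7 members higher, beside 1458 to 2241 tested genes higher and 2416 to 3000 lower. With DESeq2, upper-quartile factors, equal depth or the replicate block, 1 member was lower with miR_1271 in place of 2, XRN1 being the one lost. In that order, 3350 of 19529, 3328 of 17351, 3101 of 13981 and 3650 of 17351 tested genes were lower with miR_1271. With the replicate block, 0 members were lower with miR_2355 and 0 differed between the microRNAs. With this block, 2505 of 17351 tested genes were lower with miR_2355 and 3.09% were called between the microRNAs. Same-numbered libraries did not deviate together from their group means (correlations -0.10 to 0.02 over 7 pairs, against -0.10 to 0.10 over 14 other pairs). With 2 miR_2355 libraries, the deviations of 1 mirror those of the other, so the 14 other pairs are not an independent reference. The labels state no pairing, and the numbers are not taken as pairs.

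Sign changes occurred only in values that did not pass. With miR_1271 against control, DDX6 was 0.05 with upper-quartile factors, 0.02 at equal depth and -0.11 to 0.05 without 1 library, and EIF4ENIF1 was -0.13 with library totals and -0.08 to 0.13 without 1 library. Between the microRNAs, DCP2 was 0.00 with DESeq2, 0.12 with library totals, 0.04 without the filter, 0.01 at equal depth, 0.13 with the replicate block and -0.09 to 0.06 without 1 library. LSM1 was -0.01 with upper-quartile factors, -0.08 at equal depth and -0.22 to 0.21 without 1 library. EDC3 was 0.04 at equal depth and -0.30 to 0.00 without 1 library, and EDC4 was 0.02 with library totals and -0.23 to 0.02 without 1 library. With library totals PATL1 was 0.04 and MOV10 0.01. Library totals moved the median of all genes to -0.14 for miR_1271 against control and 0.12 between the microRNAs. Of all called genes, 41.1% were higher with miR_2355 and 43.9% with miR_1271 under TMM, 52.0% and 54.6% with upper-quartile factors, and 37.9% and 28.0% with library totals; between the microRNAs the share higher with miR_2355 went from 57.0% to 82.7% with library totals. The cause of these changes was not tested.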

Other observations

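The 10 genes differed in how far the control libraries spread. The SD was 33% of the mean for DCP2, 22% for LSM1 and 16% for XRN1 and EIF4ENIF1, but 1.7% for PATL1 and 3.6% for DCP1A (3 control libraries each). Control replicate 2, which had the fewest reads, was the lowest control for DCP2, DCP1A, XRN1, PATL1 and MOV10 and the highest for DDX6, LSM1 and EIF4ENIF1.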
